A study of Mus musculus with 24 samples.

Results

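The genes described here are 10 cytokines that T cells can make: Il2, Il3, Il4, Il10, Il13, Il17a, Csf1, Csf2, Tnf and Tgfb1. They were taken by symbol, and all 10 were found among the 24421 genes of the deposited table of read counts. RNA was sequenced from T cells that had been sorted out of the marrow of CByB6F1 mice carrying immune-mediated bone marrow failure (BMF), a state in which T cells destroy the blood-forming cells of the marrow. All 8 groups came from female BMF mice aged 2 to 5 months, the untreated controls included, so there is no group of healthy mice. The groups are CD8 T cells and CD4 T cells from mice that were untreated, given cyclosporine (CSA), given ruxolitinib (RUX), or given both drugs (RUX+CSA); the series title calls the ruxolitinib dose low. Each group has 3 libraries, and each library is a pool of 2 to 3 mice. How BMF was induced, the doses and the times of sampling are not given in the sources used here. In the text a library is named by its group and pool number, pools 1 to 12 being CD8 and 13 to 24 being CD4.

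A T cell makes most of these cytokines only after its antigen receptor is engaged. Receptor signals raise calcium, calcium activates the phosphatase calcineurin, and calcineurin lets NFAT factors enter the nucleus, where they bind cytokine promoters together with AP-1 and NF-kappa-B. Cyclosporine blocks calcineurin. Ruxolitinib blocks JAK1 and JAK2, kinases that carry the signal of many cytokine receptors rather than of the antigen receptor. The 10 genes cover several roles: Csf1, Csf2 and Il3 are growth factors for myeloid cells, Il2 drives T cell growth, Il4 and Il13 are type 2 cytokines, Tnf and Il17a are inflammatory, and Il10 and Tgfb1 restrain immune responses.

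The promoters of members that differ in these data are shown because NFAT is the direct target of the calcineurin pathway. RefSeq promoters of build GRCm38.p6 were matched by symbol for 9 of the 10 members (Il10 had no match). The start site equals the 5′ end of the gene in the counted annotation for 9 of 9. Each sequence is the 250 bases upstream of the start site, 5′ to 3′ on the gene's own strand, with the NFAT core GGAAA, or TTTCC where it lies on the other strand, in capitals. The 6 printed are Csf1, the member with drug differences past the threshold, its fellow growth factor Csf2, Il2, the type 2 gene Il4, the inflammatory gene Tnf, and Tgfb1, the tested member that differed least between the cell types.
Csf1, chr3:107760470-107760719, minus strand: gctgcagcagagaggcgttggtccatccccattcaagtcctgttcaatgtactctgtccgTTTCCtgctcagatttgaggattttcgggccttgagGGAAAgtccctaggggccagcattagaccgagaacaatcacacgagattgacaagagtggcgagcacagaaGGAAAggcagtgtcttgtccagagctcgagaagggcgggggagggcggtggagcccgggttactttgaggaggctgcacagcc
Csf2, chr11:54249900-54250149, minus strand: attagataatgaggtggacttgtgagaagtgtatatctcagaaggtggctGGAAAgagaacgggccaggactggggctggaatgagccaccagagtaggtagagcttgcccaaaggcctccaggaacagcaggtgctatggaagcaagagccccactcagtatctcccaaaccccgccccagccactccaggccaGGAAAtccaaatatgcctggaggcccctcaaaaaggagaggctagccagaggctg
Il2, chr3:37125955-37126204, minus strand: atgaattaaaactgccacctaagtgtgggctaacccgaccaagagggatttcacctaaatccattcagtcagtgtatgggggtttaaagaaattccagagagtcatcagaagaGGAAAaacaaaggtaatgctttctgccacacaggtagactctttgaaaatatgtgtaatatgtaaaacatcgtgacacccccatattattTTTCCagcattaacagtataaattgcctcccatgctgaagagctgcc
Il4, chr11:53618666-53618915, minus strand: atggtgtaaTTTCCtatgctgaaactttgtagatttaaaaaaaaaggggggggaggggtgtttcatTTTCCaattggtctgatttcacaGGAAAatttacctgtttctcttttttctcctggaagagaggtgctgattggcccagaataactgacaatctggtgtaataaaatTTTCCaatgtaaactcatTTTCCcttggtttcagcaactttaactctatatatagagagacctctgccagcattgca
Tnf, chr17:35202008-35202257, minus strand: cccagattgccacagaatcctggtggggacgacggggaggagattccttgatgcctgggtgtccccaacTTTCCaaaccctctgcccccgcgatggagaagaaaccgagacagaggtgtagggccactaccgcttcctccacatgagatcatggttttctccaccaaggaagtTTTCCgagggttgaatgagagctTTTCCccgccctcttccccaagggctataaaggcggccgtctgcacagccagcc
Tgfb1, chr7:25686752-25687001, plus strand: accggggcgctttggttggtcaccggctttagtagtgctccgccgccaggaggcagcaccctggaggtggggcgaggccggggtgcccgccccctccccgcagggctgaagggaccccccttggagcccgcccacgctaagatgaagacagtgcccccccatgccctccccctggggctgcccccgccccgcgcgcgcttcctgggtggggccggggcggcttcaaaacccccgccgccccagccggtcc

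GGAAA on either strand was present in 7 of the 9 matched promoters, against 55.6% of 32851 promoters in the table. Il4 held 5 copies and Il13 held 4, and 1.59% of all promoters held 4 or more. Csf1 and Tnf held 3 each, Il2 and Csf2 held 2 each, Il3 held 1, and Il17a and Tgfb1 held none in this window; 3 or more copies were found in 6.39% and 2 or more in 21.4% of all promoters. The AP-1 motif TGANTCA, searched on both strands, was in the Il17a window only, and in 6.75% of all promoters. The TATA box motif TATAAA, on either strand, was in 4 of the 9, namely Il2, Il13, Il17a and Tnf, against 12.4% of all promoters. Those of Il2 and Il17a began 31 bases before the start, that of Tnf 29, and the Il13 matches 31 and 29. No match of one motif overlapped a match of another. These are matches of letters, not measured binding.

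Several members are neighbours in the genome. In the mm10 coordinates of the deposited table, Csf2 (chr11:54247270-54249899) and Il3 (chr11:54265085-54267279) lie 15186 bases apart, and Il4 (chr11:53612461-53618665) and Il13 (chr11:53631323-53634702) lie 12658 bases apart, all on the minus strand. Il2 (chr3:37120716-37125954) and Csf1 (chr3:107741048-107760469) share a chromosome without being close. Il10 (chr1:131019845-131024970), Il17a (chr1:20730905-20734496), Tnf (chr17:35199367-35202007) and Tgfb1 (chr7:25687002-25704996) make up the rest. No member's exons overlapped those of another gene, so counting without strand did not mix them with a neighbour.

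The libraries held 16912085 to 34550183 counted read pairs. Levels are given as counts-per-million (CPM) after scaling each total by a trimmed mean of M values (TMM) factor, which lay between 0.929 and 1.05. The CD8 libraries averaged 1050 CPM of Cd8a and 0.731 CPM of Cd4, and the CD4 libraries 3.06 CPM of Cd8a and 1420 CPM of Cd4, so both sorts match their labels. Genes of other marrow cells were present, and their levels differed between groups; these are given beside the results they move with. CD8 CSA pool 6 and CD8 RUX pool 7 were treated as libraries in doubt, a choice made with earlier results of these data known. Without them the number of genes past the threshold for CD8 RUX+CSA against untreated went from 1988 to 3893. Neither library is in those groups, so their omission reached that comparison only through the fit shared by the CD8 libraries. No other ground for the choice is given here, so smaller adjusted p-values without them lend no support to a call. Member calls in CD8 comparisons and counts over gene lists printed for CD8 RUX+CSA that change without these libraries are given both ways.

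Of the 10 members, 4 were at or near the count floor. A library was taken to be at the floor with 3 counts or fewer, which is 0.0868 to 0.177 CPM depending on its depth. Il3, encoding a growth factor for basophils and early myeloid cells, had 0 counts in all 12 CD8 libraries, and in CD4 it had 20 counts in CSA pool 17, 2 in RUX pool 19, 3 in RUX+CSA pool 22 and 0 elsewhere. Only CSA pool 17 was above the floor, so Il3 was at the floor in 7 of 8 groups. Il4, encoding the type 2 cytokine that acts on B cells, was at the floor in all 12 CD8 libraries, with 5 counts over all of them, and above it in all 12 CD4 libraries, with 345 counts. Il13, encoding a type 2 cytokine that acts on epithelium and macrophages, was at the floor in all 12 CD8 libraries and in 4 of 12 CD4 libraries. Il17a, encoding the cytokine of Th17 cells, was at the floor in 11 of 12 CD8 libraries and 7 of 12 CD4 libraries.

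Summed over the libraries of a cell type and scaled to depth, counts of Il4 were 68.2 times higher in CD4 than in CD8 (95% exact interval 28.9 to 211, covering counting error only). The same ratio was 15.4 for Il13 (7.22 to 39.2, from 109 and 7 counts) and 7.7 for Il17a (3.03 to 25, from 39 and 5 counts). For Il3 the CD4 libraries held 25 counts and the CD8 libraries 0, but 20 of the 25 came from CSA pool 17 and 9 of 12 CD4 libraries were also at 0, so no ratio is given. Il17a was unevenly spread among the CD4 groups: the counts were 7, 6 and 9 in the CSA pools, 12, 0 and 1 in the RUX+CSA pools, 4, 0 and 0 in the untreated pools and 0 in all RUX pools. All 3 CSA pools lay above all untreated and RUX pools. Il17a did not pass the filter on low counts. Without the filter, its CSA main effect in CD4, defined below, had a log2 difference of 3.91 and an adjusted p of 0.159 by edgeR's quasi-likelihood test with Benjamini-Hochberg adjustment, and no floor member passed in any drug comparison.

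Levels of different genes were compared as CPM per kilobase of exon. In CD8 cells Tgfb1 was the highest member at 53.5 CPM per kilobase over the 12 libraries, higher than 90% of the 17844 genes detected there. Csf1 followed at 19.7, Il10 at 3.71, Tnf at 3.69, Csf2 at 2.45 and Il2 at 0.556 CPM per kilobase. Tgfb1 lay above Csf1 without overlap in each of the 4 CD8 groups, whereas Il10 and Tnf overlapped in each and have no firm order. Csf2 overlapped Il10 and Tnf in untreated and RUX and lay below them in CSA. In RUX+CSA it overlapped Il10 and lay below Tnf by a very narrow margin. In CD4 cells the order at the top was the other way round: Csf1 averaged 83.4 CPM per kilobase, above 94.6% of 19642 detected genes, and Tgfb1 59. Csf1 exceeded Tgfb1 without overlap in the CD4 CSA and CD4 RUX+CSA groups, while the ranges overlapped in CD4 untreated and CD4 RUX. Below them came Il10 at 15.4, Tnf at 12.7, Csf2 at 12.1, Il2 at 2.27 and Il4 at 1.33 CPM per kilobase.

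**Figure D1:**
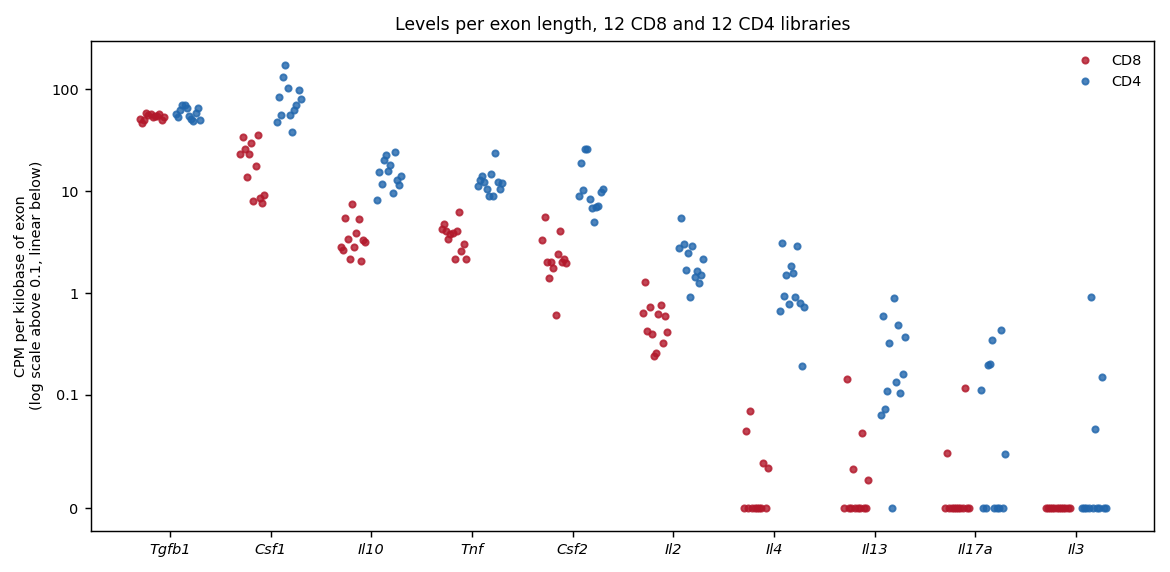
Level of each member as CPM per kilobase of exon, on an axis that is logarithmic above 0.1 and linear below; each point is 1 library, 12 CD8 in red and 12 CD4 in blue. Tgfb1 is highest in CD8, Csf1 reaches the highest values in CD4, up to 172, and the CD8 points of Il3, Il4, Il13 and Il17a lie at or near 0.

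The first comparison asks which of these cytokines differ between CD8 and CD4 T cells of failing marrow. The labels do not say whether the CD8 and CD4 pools of a treatment came from the same mice, so the pools were tested as unpaired, and the p-values between the cell types rest on that. All 8 members that passed the filter were lower in CD8 than in CD4 when averaged over the 4 treatments: Csf1, Csf2, Il2, Il4, Il13, Tnf, Il10 and, by a small margin, Tgfb1. By edgeR's quasi-likelihood test with adjustment over 13476 genes, 8 of 8 passed the threshold of 0.05, where 26.4% of all genes were lower in CD8 and 53.8% differed in either direction. The median difference was -2.07 log2 over the 8 members and 0.007 over all genes. Il4 and Il13 did not pass the filter in the CD8 libraries and entered this fit only through CD4, where they are higher. Their direction was thus fixed by the filter, and they lend no support to the count or the median. The 6 members that also passed the filter in CD8 were all among those called. The 8 calls held when each of the 24 libraries was left out in turn and by DESeq2. Fewer cells making a cytokine and less RNA per cell cannot be told apart in these bulk libraries. Replicates are pools of mice, so the p-values measure the spread between pools.

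**Figure D2:**
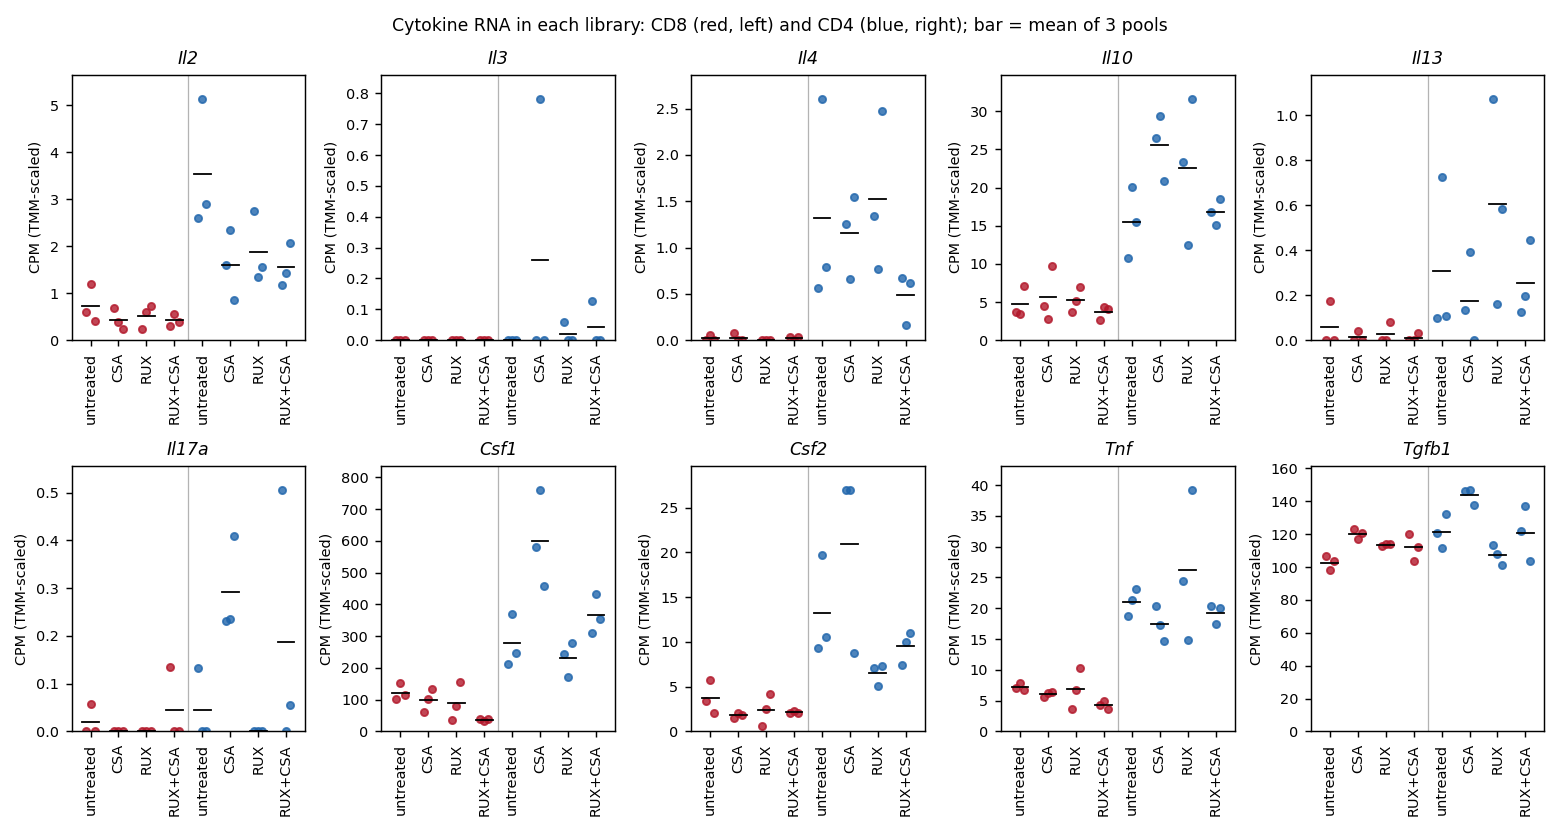
CPM of each member in every library on a linear axis of its own, with the 4 CD8 groups (red) left and the 4 CD4 groups (blue) right, and a bar at the mean of 3 pools. For Il4, Il10, Csf1 and Tnf all 12 CD8 points lie below all 12 CD4 points, and Il3, Il4, Il13 and Il17a are at or near 0 in CD8.

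Csf1, which encodes the growth factor of monocytes and macrophages (M-CSF), stood at 87.3 CPM ± 45.8 (SD, n = 12) in CD8 and 369 CPM ± 169 (SD, n = 12) in CD4. Its CD8 libraries ran from 34 to 157 CPM with a median of 90.2, and its CD4 libraries from 170 to 760 with a median of 333, so the cell types did not overlap. The difference was -2.11 log2 (SE 0.2), a fold of 4.3, with an edgeR adjusted p of 1.24e-07. Csf2, which encodes GM-CSF, a growth factor and activator of granulocytes and macrophages, ran from 0.628 to 5.8 CPM in CD8 (median 2.1) and from 5.1 to 27 CPM in CD4 (median 9.66). The highest CD8 library, untreated pool 2, was above the lowest CD4 library, RUX pool 20. The mean difference was -2.23 log2 (SE 0.25), with an edgeR adjusted p of 3.26e-07.

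Il2 ran from 0.229 to 1.21 CPM in CD8 (median 0.481) and from 0.864 to 5.14 CPM in CD4 (median 1.83). Overlap came from untreated pool 2 in CD8, the highest there, and CSA pool 18 in CD4, the lowest. The difference was -1.97 log2 (SE 0.28) with an edgeR adjusted p of 5.54e-06, and it rests on 5 to 21 counts per CD8 library. For Il4 and Il13 the CD8 side is at the floor, so the ratios of summed counts above stand for the size of the difference; their edgeR adjusted p-values were 1.81e-07 and 0.000568.

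Tnf, encoding the inflammatory cytokine TNF, ran from 3.57 to 10.3 CPM in CD8 (median 6.35) and averaged 6.1 CPM there against 21 CPM in CD4. The lowest CD4 library, CSA pool 18 at 14.7 CPM, was above the highest CD8 library, RUX pool 9. Tnf differed by -1.79 log2 (SE 0.15, edgeR adjusted p = 3.33e-09). Il10, which encodes an inhibitory cytokine, averaged 4.85 CPM ± 2.1 (SD, n = 12) in CD8 and 20.1 CPM ± 6.57 (SD, n = 12) in CD4. The CD8 maximum of 9.77 CPM stayed under the CD4 minimum of 10.8 CPM, a gap of small size. Il10 differed by -2.03 log2 (SE 0.2, edgeR adjusted p = 7.03e-08). Tgfb1, encoding the latent cytokine TGF-beta 1, had means of 112 CPM (CD8) and 123 CPM (CD4), with overlapping libraries, and its difference was -0.13 log2 (SE 0.04, edgeR adjusted p = 0.0148).

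Within single treatments fewer members passed, and all values lay below 0 except that of Tgfb1 under RUX, at 0.08 log2. Il4 is counted in every treatment, with the limit given above for Il4 and Il13. In untreated mice 6 of 8 members were lower in CD8 (10% of all genes were, and 17.2% differed either way), namely Il2, Il4, Il10, Csf1, Csf2 and Tnf. Under CSA the count was 7 of 8 (12.8% of genes, 26.3% either way), with Tgfb1 added. Under RUX it was 5 of 8 (9.32%, 17.9% either way), without Csf2 and Tgfb1, and under RUX+CSA it was 6 of 8 (13%, 27.8% either way), the set of the untreated mice. The size of the Csf1 difference varied with treatment, from -1.18 log2 (SE 0.39) in untreated and -1.35 (SE 0.39) in RUX to -2.61 (SE 0.41) in CSA and -3.29 (SE 0.42) in RUX+CSA, that is from a fold of 2.26 to a fold of 9.78. Csf2 ranged from -1.4 log2 (SE 0.49) in RUX to -3.55 (SE 0.53) in CSA, whereas Il10 lay between -1.7 and -2.18 log2, Il2 between -1.85 and -2.28 and Tnf between -1.51 and -2.18. Il13 passed in none of the 4 treatments.

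**Figure D3:**
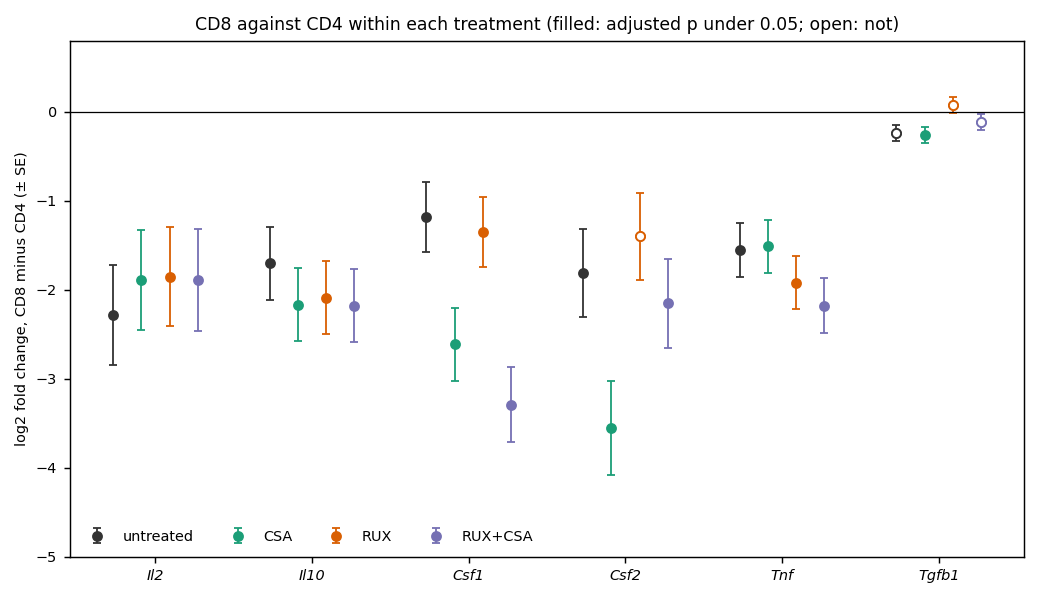
Log2 difference of CD8 against CD4 within each treatment for the 6 members above the floor in both cell types, with bars of 1 SE; filled points have an adjusted p under 0.05 by edgeR. The points for Csf1 spread from -1.18 in untreated to -3.29 in RUX+CSA mice, whereas those for Il10 and Tnf sit close together.

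Several of these single-treatment calls were marginal and were lost when any of several libraries was left out. For Csf1 in untreated mice (adjusted p = 0.0466) the edgeR adjusted p was 0.188 without CD4 pool 14, 0.0754 without CD4 pool 15, 0.153 without CD8 pool 1, 0.0587 without CD8 pool 2 and 0.131 without CD8 pool 3. For Csf1 under RUX (adjusted p = 0.024) it was 0.0683 and 0.079 without CD4 pools 19 and 21, and 0.074 and 0.0875 without CD8 pools 7 and 8. Csf2 in untreated mice went to 0.0849 without CD4 pool 14, 0.058 without CD8 pool 1 and 0.0757 without CD8 pool 3. Csf2 under RUX, which missed the threshold at an adjusted p of 0.0551, reached 0.0154 without CD8 pool 9.

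The calls for Il2 were also narrow under the drugs. Its edgeR adjusted p went to 0.0785, 0.059 and 0.0783 under CSA without CD4 pool 17, CD8 pool 5 and CD8 pool 6, and to 0.125, 0.104 and 0.0614 under RUX without CD4 pool 19, CD8 pool 7 and CD8 pool 8. Under RUX+CSA it went to 0.0537, 0.0748 and 0.0521 without CD4 pool 24, CD8 pool 10 and CD8 pool 12. Tgfb1 under CSA (adjusted p = 0.0341) lost its call without CD4 pool 16 (0.0936), CD4 pool 17 (0.081) or CD8 pools 4, 5 and 6 (0.0588, 0.0874 and 0.0716). In the opposite direction, Tgfb1 in untreated mice passed at 0.0388 without CD4 pool 14, and Il13 under RUX passed at 0.043 without CD4 pool 20. Without both CD8 libraries in doubt the adjusted p was 0.0636 for Il2 and 0.0716 for Tgfb1 under CSA, and 0.0933 for Il2 and 0.0608 for Csf1 under RUX. The calls for Il4, Il10 and Tnf held in every treatment under each such omission.

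Other cell types also differed between the 2 sorts. Markers of macrophages and monocytes were lower in CD8 for 13 of 15 genes, among them Csf1r with means of 3.85 CPM (CD8) and 17.6 CPM (CD4), and 12 of 15 neutrophil markers were lower in CD8, where 26.4% of all genes were lower. The neutrophil count was 2 to 15 with 1 library left out and 7 without CD8 CSA pool 6 and CD8 RUX pool 7. Of 7 tested stroma and endothelium markers 3 were lower in CD8 and 0 higher, and the 10 genes of that list summed to 61.8 to 80.5 CPM in the CD8 and 72.2 to 128 CPM in the CD4 libraries. The part of these cells in the cytokine differences was not tested.

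The second comparison asks how each drug changed the cytokines against untreated BMF mice, in CD8 and in CD4 cells separately. Csf1 was the 1 member past the threshold, and its differences had opposite signs in the 2 cell types. In CD8 cells it was lower with both drugs than in untreated mice. In CD4 cells it was higher in the 6 libraries with CSA, alone or with RUX, than in the 6 without CSA, while neither CSA group passed against untreated alone. Il2, Il10, Tnf, Tgfb1, Csf2, Il4 and Il13 passed in no drug comparison by edgeR's quasi-likelihood test. In CD8 cells 6 members were tested and in CD4 cells 8.

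In CD8 cells Csf1 stood at 102, 152 and 114 CPM in the untreated pools, 61.4, 102 and 133 in the CSA pools, 35.6, 78.9 and 157 in the RUX pools, and 38.2, 34 and 40.3 in the RUX+CSA pools. The 3 RUX+CSA pools were close together and below all untreated pools, whereas the CSA and RUX pools were widely spread and overlapped the untreated ones. Csf1 in RUX+CSA was 37.5 CPM ± 3.23 (SD, n = 3) against 123 CPM ± 26 (SD, n = 3), a log2 difference of -1.72 (SE 0.46), a fold of 3.29, with an edgeR adjusted p of 0.0365. It was 1 of 6 members called, where 7.73% of the 12684 genes were lower and 15.7% differed either way. The call is not stable to the loss of a library: the adjusted p was 0.115, 0.112 and 0.0648 without RUX+CSA pools 10, 11 and 12, and 0.0577, 0.11 and 0.0696 without untreated pools 1, 2 and 3. It was also lost with no filter on low counts (0.0703) and held by DESeq2. The adjusted p was 0.0053 without the libraries in doubt, CSA pool 6 and RUX pool 7, neither of which is in the compared groups.

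Against untreated, CSA alone gave -0.32 log2 (SE 0.45) for Csf1 in CD8 and RUX alone -0.44 (SE 0.45). By edgeR 0 of 6 members passed with CSA alone, where 0% of all genes passed, and 0 of 6 with RUX alone, where 0% passed; 1 member (Tgfb1) and no member had an unadjusted p under 0.05, and DESeq2 called 0 in both. A main effect compares the 6 libraries with a drug with the 6 without it, whatever the other drug. The CSA main effect on Csf1 in CD8 was -0.8 log2 (SE 0.32, edgeR adjusted p = 0.17) and the RUX main effect was -0.92 (SE 0.32, edgeR adjusted p = 0.217). No member passed in either: 0 of 6 with 2.36% of genes called for CSA, and 0 of 6 with 0.56% for RUX, with Csf1 and Tnf, and Csf1, at an unadjusted p under 0.05, and none by DESeq2. Without RUX pool 7, the lowest of its group, the CSA main effect on Csf1 was -0.98 log2 and passed (adjusted p = 0.034), as it did without both libraries in doubt (-1.12 log2, adjusted p = 0.013).

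Markers of several other cell types were higher in the same CD8 comparison, where 7.94% of all genes were. In CD8 RUX+CSA libraries 7 of 9 tested basophil and mast cell markers were higher, and the summed level of the list went from 7.01 to 34.5 CPM in untreated to 96 to 135 CPM in RUX+CSA, with Mcpt4 at 0. Summed neutrophil markers went from 12.9 to 1480 CPM in untreated to 4380 to 5910 CPM, with 5 of 15 higher, and erythroid markers from 1.09 to 11.3 CPM to 36.3 to 152 CPM, with 4 of 6 higher and the globins Hba-a1, Hba-a2, Hbb-bs and Hbb-bt at 0. Of 8 tested B cell markers 5 were higher, the summed list going from 5.9 to 13.6 CPM to 28.4 to 75.3 CPM. Dendritic cell markers summed to 48.5 to 67.8 CPM in untreated and 239 to 272 CPM in RUX+CSA, with 1 of 4 higher and 1 lower, and NK and innate lymphoid markers to 63.6 to 66.7 and 126 to 145 CPM, with 0 of 7 higher and 1 lower. Of 15 macrophage markers 2 were higher and 3 lower, while their sum went from 294 to 366 CPM in untreated to 865 to 1100 CPM in RUX+CSA. With 1 library left out, 3 to 7 basophil and mast cell, 0 to 9 neutrophil, 3 to 4 erythroid and 0 to 5 B cell markers were higher. In the same omissions 1 to 3 macrophage markers were higher and 0 to 4 lower, and 426 to 1807 of all genes passed. Without the libraries in doubt 3893 of all genes passed instead of 1988, and 8 basophil and mast cell and 8 B cell markers were higher. In that setting dendritic cell markers had 2 higher and 1 lower, NK and innate lymphoid markers 1 higher and 2 lower, and macrophage markers 2 higher and 6 lower. The T cell markers themselves summed to 8540 to 8940 CPM in untreated and 9540 to 10500 CPM in RUX+CSA, the higher range being that of the treated pools. The part of these cells in the Csf1 difference was not tested.

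In CD4 cells Csf1 stood at 214, 369 and 249 CPM in the untreated pools, 581, 760 and 458 in the CSA pools, 245, 170 and 278 in the RUX pools, and 312, 434 and 354 in the RUX+CSA pools. All CSA pools were above all untreated pools, and all RUX+CSA pools were above all RUX pools. The CSA main effect was 0.89 log2 (SE 0.18), a fold of 1.85, from a mean of 254 CPM in the 6 libraries without CSA to 483 CPM in the 6 with it, and its edgeR adjusted p was 0.0202. This was 1 of 8 members called, where 3.76% of the 13175 genes were higher and 7.16% differed either way. The call held when each of the 12 libraries was left out, with adjusted p-values from 0.00604 to 0.0454.

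Taken singly, CSA against untreated gave 1.11 log2 (SE 0.26) for Csf1 in CD4, a fold of 2.16 from 277 to 600 CPM, with an edgeR adjusted p of 0.0719. It passed without untreated pool 14, the highest untreated pool, at 1.38 log2 and an adjusted p of 0.0305, and by DESeq2 at 0.00556. RUX+CSA against untreated gave 0.4 log2 (SE 0.26) and RUX against untreated -0.26 (SE 0.26). By edgeR 0 of 8 members passed with CSA (1.48% of genes did), 0 of 8 with RUX (0%) and 0 of 8 with RUX+CSA (1.77%), with 4, 1 and 1 members at an unadjusted p under 0.05 and 1, 0 and 0 called by DESeq2. The RUX main effect on Csf1 in CD4 was -0.49 log2 (SE 0.18, edgeR adjusted p = 0.419).

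Markers of other cells also moved with CSA in CD4 libraries. Over the CSA main effect 3.76% of all genes were higher and 7.16% differed either way, with 447 of 13175 lower. Beside that, 2 of 9 basophil and mast cell, 2 of 6 erythroid and 3 of 6 dendritic cell markers were higher. So were 2 of 9 B cell and 2 of 8 NK and innate lymphoid markers. In that order the counts were 1 to 7, 2 to 6, 2 to 3, 0 to 2 and 2 to 3 with 1 library left out. By DESeq2 they were 6, 4, 3, 3 and 4, with 1674 genes called over all against 943 by edgeR. The neutrophil count of 1 of 15 higher is near the share of all genes, and it was 0 to 5 with 1 library left out. Summed neutrophil markers were 96.9 to 8690 CPM in untreated and 3490 to 17100 in CSA. They were 4020 to 7840 CPM in RUX and 8280 to 10300 in RUX+CSA, above all RUX pools. Of 15 macrophage markers 2 were lower. Summed macrophage markers were 694 to 1660 CPM in untreated, 988 to 2800 in CSA, 646 to 1230 in RUX and 1230 to 1590 in RUX+CSA. That sum is led by Lyz2, a lysozyme gene that neutrophils also express, with means of 483 CPM in untreated and 985 CPM in CSA. Other genes of the list had lower means in CSA: C1qa went from 34.3 to 8.52 CPM, C1qb from 57.6 to 13.9, Csf1r from 38.2 to 14.2 and Vcam1 from 82.6 to 29.6. The median of the list for CSA against untreated was -1.48 log2, with 0 of 15 past the threshold. Stroma and endothelium markers, 0 of 7 called, were 84.2 to 113 CPM in untreated and 72.2 to 106 in CSA. Their part in the Csf1 difference was not tested.

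**Figure D4:**
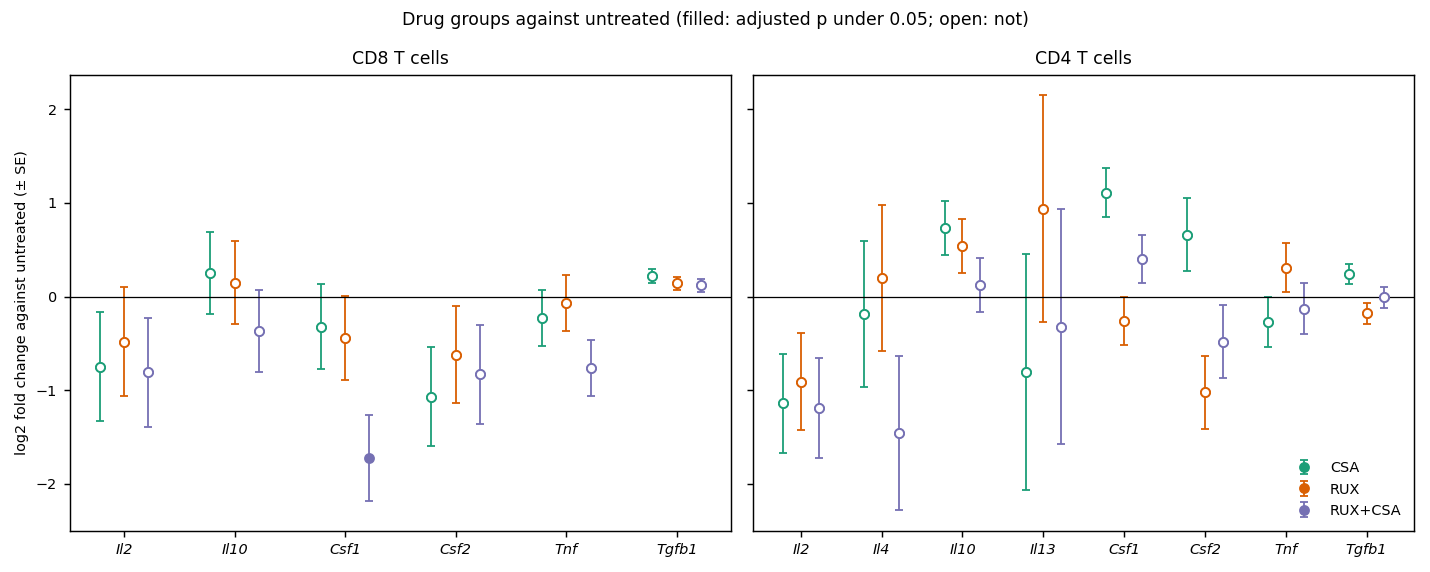
Log2 difference of each drug group against untreated for each tested member, in CD8 cells (left) and CD4 cells (right), with bars of 1 SE. The 1 filled point, Csf1 in CD8 RUX+CSA at -1.72, has an edgeR adjusted p under 0.05; Csf1 in CD4 CSA lies at 1.11.

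Because the Csf1 differences had opposite signs, the difference of the drug effect between the cell types was tested over all 24 libraries. For RUX+CSA against untreated the CD8 effect minus the CD4 effect was -2.11 log2 (SE 0.56), with an edgeR adjusted p of 0.138, and it was 0.0277 without CD8 CSA pool 6 and CD8 RUX pool 7 and 0.0233 by DESeq2. For CSA alone it was -1.43 log2 (SE 0.55, edgeR adjusted p = 0.653) and for RUX alone -0.17 (SE 0.55, edgeR adjusted p = 1). The same difference for the CSA main effect, a comparison added after the values were seen, was -1.68 log2 (SE 0.39) with an edgeR adjusted p of 0.0922. That value was 0.0325 without CD8 RUX pool 7, 0.0059 without both libraries in doubt and 0.00452 by DESeq2. By edgeR 0 of 8 members passed in each of these 4 comparisons, where 0%, 0%, 0.0223% and 0.0816% of genes passed for CSA, RUX, RUX+CSA and the CSA main effect; 2, 1, 1 and 2 members had an unadjusted p under 0.05, and DESeq2 called 0, 0, 1 and 1.

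Csf2 followed Csf1 in part. In CD4 cells it stood at 9.27, 19.7 and 10.6 CPM in untreated, 27, 27 and 8.73 in CSA, 7.1, 5.1 and 7.31 in RUX, and 7.46, 10.1 and 11 in RUX+CSA. All RUX pools were below all untreated pools, while 2 CSA pools were high and CSA pool 18 was not. The RUX main effect was -1.08 log2 (SE 0.28), a fold of 2.12, with an edgeR adjusted p of 0.165. Among the 8 members 0 passed for that effect (0.25% of genes did), with Csf1, Csf2 and Tgfb1 at an unadjusted p under 0.05; DESeq2 called Csf2 (0.0121), and edgeR did so without CSA pool 18 (-1.26 log2, adjusted p = 0.0487). In CD8 cells Csf2 stood at 3.43, 5.8 and 2.09 CPM in untreated, 1.45, 2.09 and 1.83 in CSA, 0.628, 2.51 and 4.2 in RUX, and 2.1, 2.25 and 2.06 in RUX+CSA. These ranges overlapped in every comparison, and the log2 differences against untreated were -1.07 (SE 0.53), -0.62 (SE 0.52) and -0.83 (SE 0.53) for CSA, RUX and RUX+CSA. Without both libraries in doubt the CSA main effect on Csf2 in CD8 was -0.87 log2 with an adjusted p of 0.0488.

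Il2 was below untreated on average in every drug group without passing the test. In CD4 cells its pools were 2.61, 5.14 and 2.9 CPM in untreated, 1.59, 2.35 and 0.864 in CSA, 2.74, 1.35 and 1.55 in RUX, and 1.18, 1.43 and 2.06 in RUX+CSA. All CSA and all RUX+CSA pools lay below all untreated pools, and 1 RUX pool overlapped them. The log2 differences were -1.14 (SE 0.53, adjusted p = 0.301), -0.91 (SE 0.52, adjusted p = 1) and -1.19 (SE 0.53, adjusted p = 0.264) by edgeR for CSA, RUX and RUX+CSA. In CD8 cells, at 5 to 21 counts a library, the same differences were -0.75, -0.48 and -0.81 log2 with SEs of 0.58 and overlapping pools.

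Tnf in CD8 cells stood at 7.01, 7.87 and 6.66 CPM in untreated, 5.65, 6.23 and 6.47 in CSA, 3.57, 6.69 and 10.3 in RUX, and 4.24, 4.96 and 3.6 in RUX+CSA. The CSA and RUX+CSA pools were all below the untreated pools, and the RUX pools were spread over the whole range. RUX+CSA differed by -0.76 log2 (SE 0.3) with an edgeR adjusted p of 0.0998, and of 0.0155 without CSA pool 6 and RUX pool 7. The CSA main effect was -0.46 log2 (SE 0.21, edgeR adjusted p = 0.205), and it passed without RUX pool 7 (-0.61 log2, 0.0274) and without both libraries in doubt (-0.64 log2, 0.0148). In CD4 cells Tnf lay between 14.7 and 39.2 CPM, its highest library was RUX pool 21, and its differences against untreated were -0.27, 0.31 and -0.13 log2 (SEs 0.27, 0.26 and 0.27) for CSA, RUX and RUX+CSA.

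Il10 in CD4 cells stood at 10.8, 20.1 and 15.5 CPM in untreated, 26.4, 29.4 and 20.8 in CSA, 23.4, 12.5 and 31.7 in RUX, and 16.9, 15.2 and 18.5 in RUX+CSA. The CSA pools were above all untreated pools, narrowly so for CSA pool 18, and the other groups overlapped untreated. CSA alone gave 0.73 log2 (SE 0.29, edgeR adjusted p = 0.241), whereas RUX+CSA gave 0.12 (SE 0.29). In CD8 cells Il10 lay between 2.68 and 9.77 CPM with overlap in every comparison. Its sign there turned on single libraries: CSA against untreated was 0.25 log2 with all libraries and -0.39 without CSA pool 6, the highest of all.

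Tgfb1 was the steadiest member. In CD8 cells it lay between 98 and 123 CPM in all 12 libraries and in CD4 cells between 101 and 147 CPM. Against untreated, CSA gave 0.22 log2 (SE 0.07, edgeR adjusted p = 0.439) in CD8 and 0.24 log2 (SE 0.11, edgeR adjusted p = 0.272) in CD4, with the CSA pools above all untreated pools in both. The RUX difference was 0.14 log2 (SE 0.07) in CD8 and -0.18 (SE 0.11) in CD4, and that of RUX+CSA was 0.12 (SE 0.07) and -0.01 (SE 0.11).

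Il4 and Il13 could be tested for drugs in CD4 cells only. The Il4 counts were 17, 72 and 15 in untreated, 38, 17 and 34 in CSA, 45, 24 and 51 in RUX, and 16, 5 and 11 in RUX+CSA. Untreated pool 14 was far above its group, and the RUX+CSA pools, the lowest group by CPM, lay below all RUX pools and overlapped the untreated and CSA pools. RUX+CSA differed from untreated by -1.46 log2 (SE 0.82, edgeR adjusted p = 0.39). The Il13 counts were 3, 20 and 2 in untreated, 4, 10 and 0 in CSA, 36, 5 and 12 in RUX, and 3, 6 and 8 in RUX+CSA. Untreated pool 14 and RUX pool 19 were the highest, and no pair of groups was separated. With SEs of 1.21 to 1.26 log2 against untreated, a change of severalfold in Il13 was not detectable at this depth.

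Genes around the members were described from lists, each with its count of genes past the threshold. Among 21 other T cell cytokines, 17 were tested between the cell types, and 12 were lower and 0 higher in CD8, where 26.4% of all genes were lower, with a median of -1.39 log2 against 0.007 for all genes. They include Il21, the cytokine of follicular helper T cells (11.3 against 156 CPM, -4.06 log2), Tnfsf11, encoding RANKL (3.08 against 55.7 CPM, -4.19 log2), Ebi3, a subunit of IL-27 and IL-35 (1.53 against 27.9 CPM, -4.25 log2), and the TNF relatives Lta (-2.78 log2) and Ltb (-1.39 log2). In the CD8 libraries alone 14 of the list passed the filter. Genes that passed only through CD4, such as Il6 with CD8 group means of at most 0.116 CPM, could only be lower in CD8. Such genes lend no support to the count or the median. Under the drugs 1 of 14 was lower in CD8 RUX+CSA, a share near the 7.73% of all genes lower there, namely Ltb at -0.66 log2 (edgeR adjusted p = 0.0448). Without the libraries in doubt 1 was higher and 3 were lower, with 3893 instead of 1988 genes past the threshold over all. The Ltb call was lost without RUX+CSA pools 10, 11 or 12 (0.148, 0.102 and 0.0931) or untreated pools 1 or 2 (0.0981 and 0.164). In CD4 1 of 17 was lower for the CSA main effect, near the share of all genes, of which 447 of 13175 were lower. It was Il6 at -2.09 log2, from 2.42 to 0.525 CPM (edgeR adjusted p = 0.0273). The Il6 call was lost without any 1 of pools 13, 17, 18, 19, 22 or 24, with adjusted p-values from 0.054 to 0.0833.

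Of 21 receptor genes for the 10 cytokines, 19 were tested, and 4 were higher and 12 lower in CD8 than in CD4, where 53.8% of all genes differed either way and 26.4% were lower. Il2ra, the high-affinity subunit of the IL-2 receptor, averaged 19.8 CPM in the CD8 and 119 CPM in the CD4 libraries (-2.56 log2, SE 0.19), and Il2rg, the shared gamma chain, 1040 and 1660 CPM (-0.67 log2, SE 0.06). Il10rb, a subunit of the IL-10 receptor, was higher in CD8 by 0.51 log2 (SE 0.05). In CD8 RUX+CSA 3 of 19 were higher and 1 lower, near the 15.7% of all genes that differed there. The count was 5 higher and 4 lower without the libraries in doubt, with 3893 instead of 1988 genes past the threshold over all. The largest difference was that of Il13ra1, a chain of the IL-13 receptor, from 0.279 CPM ± 0.147 to 3.31 CPM ± 0.936 (SD, n = 3 each), or 3.5 log2 (SE 0.52, edgeR adjusted p = 0.00427). This call held in all 6 omissions of a library, and its level rose beside the basophil and neutrophil markers given above; their part was not tested. The CD4 CSA main effect raised Il17ra, a chain of the IL-17 receptor, by 0.38 log2 (edgeR adjusted p = 0.015) in all 12 omissions. Tnfrsf1b, encoding TNF receptor 2, fell by 0.35 on the log2 scale (edgeR adjusted p = 0.0188), and without RUX pool 19 its adjusted p was 0.051.

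TGF-beta and TNF are made as precursors, so 11 genes of their processing were followed. Lrrc32, encoding GARP, which holds latent TGF-beta on regulatory T cells, averaged 0.624 CPM over CD8 and 7.75 CPM over CD4 libraries (-3.54 log2, SE 0.27). Furin, the protease that cleaves the TGF-beta precursor, averaged 98.6 and 192 CPM (-0.94 log2, SE 0.07). In CD4 cells Furin rose with the CSA main effect from 155 to 229 CPM, 0.56 log2 (SE 0.1, edgeR adjusted p = 0.0054), and kept its call in all 12 omissions. Its CD4 pools ranged from 227 to 272 CPM in CSA and 198 to 241 in RUX+CSA, above the 142 to 171 of untreated and the 117 to 180 of RUX. In that comparison 2 of 9 tested genes of the list were higher and 2 lower, against 7.16% of all genes either way, and with 1 library left out 1 to 2 were higher and 0 to 2 lower. In CD8 RUX+CSA 0 of 9 passed by edgeR, against 15.7% of all genes. DESeq2 called 1 higher, and 2 were lower without the libraries in doubt. Over all genes these settings called 2851 and 3893, against 1988 in the main test.

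The NFAT, AP-1 and NF-kappa-B list holds the factors through which the antigen receptor drives cytokine genes, and calcineurin itself. In CD4 cells 7 of 20 were higher and 0 lower with the CSA main effect, against 3.76% of all genes higher, and 3 to 9 were higher when 1 library was left out. Nfatc3 rose by 0.53 log2 (SE 0.09, 324 to 468 CPM), Nfatc1 by 0.5 log2 (SE 0.09, 858 to 1220 CPM) and the AP-1 member Fosl2 by 0.94 log2 (SE 0.19, 11.4 to 21.6 CPM), with edgeR adjusted p-values of 0.00414, 0.00654 and 0.0102 and calls kept in all 12 omissions. In CD8 RUX+CSA 3 of 20 were higher, the AP-1 genes Junb, Fos and Jund, at 0.67, 1.65 and 0.35 log2, against 7.94% of all genes. The count was 6 higher and 0 lower by DESeq2, and 7 higher and 2 lower without the libraries in doubt. Over all genes these settings called 2851 and 3893, against 1988 in the main test. Leaving out 1 library of the comparison left 0 or 1 gene of the list higher: Fos and Jund lost their calls without any 1 of the 6 libraries, with adjusted p-values from 0.0558 to 0.152, and Junb without any but untreated pool 3, at 0.0548 to 0.072. Between the cell types Nfkb1 and Nfkb2 were lower in CD8 by -1.01 and -1.34 log2, and Ikzf3, encoding the repressor Aiolos, was higher by 0.96 log2.

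Among 20 lineage factors that decide which cytokine a T cell makes, Foxp3, the factor of regulatory T cells, changed most firmly with CSA. Its CD4 levels were 71.6 CPM ± 21.4 in untreated and 69.2 CPM ± 1.71 in RUX, but 35.9 CPM ± 3.35 in CSA and 34.8 CPM ± 5.17 in RUX+CSA (SD, n = 3 each), with no overlap between libraries with and without CSA. The CSA main effect was -0.99 log2 (SE 0.12, edgeR adjusted p = 0.00041), kept in all 12 omissions. CSA alone against untreated gave -0.99 log2 (SE 0.17, edgeR adjusted p = 0.0127), and 0.0636 without CSA pool 18. Bcl6, the factor of follicular helper T cells, moved up from 13.4 to 25.4 CPM, 0.92 log2 (SE 0.16, edgeR adjusted p = 0.00521), in the same 6 against 6 libraries. In all 3 of 20 lineage factors were higher and 3 lower there, where 3.76% of all genes were higher and 7.16% differed either way. With 1 library left out 1 to 4 were higher and 1 to 5 lower. Maf, a factor that activates Il4 and Il10, was 2.7 log2 lower in CD8 than in CD4 (21.9 against 145 CPM).

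The stability of cytokine RNA is set by proteins such as tristetraprolin (Zfp36), regnase (Zc3h12a) and roquin (Rc3h1 and Rc3h2). Of 15 such genes 0 passed for the CD4 CSA main effect by edgeR and 1 by DESeq2. In CD8 RUX+CSA 1 was higher and 2 lower, near the 7.94% of all genes higher and 7.73% lower there. The count was 1 higher and 7 lower without the libraries in doubt, with 3893 instead of 1988 genes past the threshold over all. Rc3h2 went from 77.5 CPM ± 7.98 in untreated to 44.3 CPM ± 9.25 in RUX+CSA (SD, n = 3 each), -0.82 log2 (SE 0.15, edgeR adjusted p = 0.00827), and kept its call in all 6 omissions. Zfp36 was 0.59 log2 higher (edgeR adjusted p = 0.0166), and 0.0561 without RUX+CSA pool 10. Zc3h12a, which degrades Il2 and Il6 RNA, was 0.93 log2 lower in CD8 than in CD4 (15.2 against 29.1 CPM).

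The genes most like each member over the 24 libraries were found by the root mean square (RMS) difference of log2 CPM after each gene was centred, among the 10553 genes whose log2 CPM averaged 1 or more. The libraries share cell type and treatment, so the likeness describes these samples only. Csf1 was nearest to Slamf1, a T cell surface receptor, at 0.39 log2, where its own RMS spread was 1.29. Csf2 was nearest to Lilrb4a (0.56) and then to Csf1 (0.57), the 1 case of a member among the nearest genes of another. Tnf was nearest to Nfkbia, the NF-kappa-B inhibitor, at 0.26, Il10 to Plk3 at 0.43, Il4 to Ecm1 at 0.62 and Il2 to St3gal2 and Psd, both at 0.49. Il13 was nearest to Tbc1d30 (0.64), and Tgfb1, whose own spread was 0.16, to Qsox1 (0.11).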

How the data were processed

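RNA of sorted CD8 and CD4 marrow T cells was measured in 24 libraries made with a SMART-Seq mRNA kit, per the labels' protocols. The authors deposited raw read counts: unscaled whole numbers, 1 per gene and library. Per the file headers, featureCounts 2.0.3 counted pairs over exons by gene, without strand; STAR and mm10 are named in the submitters' processing notes, and the STAR version is not given in the sources used here.

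TMM factors were computed with edgeR 4.0.16 (R 4.3.3), which also gave a filter on low counts (filterByExpr) and robust quasi-likelihood tests, two-sided, with Benjamini-Hochberg adjustment over all genes tested and a threshold of 0.05. Drug comparisons were fitted on the 12 libraries of a cell type, and comparisons between cell types on all 24. Printed CPM use the TMM factors of the 24 libraries. Intervals and floors cover counting error only. The scripts were tested on simulated counts. Alternatives were DESeq2 1.42.0, its size factors in edgeR, no filter, each library left out, and the omission of CD8 CSA pool 6 and CD8 RUX pool 7.

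The members, the gene lists and those 2 libraries were chosen with earlier results of these data known. Every member is named in the report; from each list the named genes are among the up to 3 past the threshold with the smallest p in a comparison (any that pass, for other cytokines), and for each tested member the nearest genes by RMS difference.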

Additional observations from a re-analysis of the deposited data

Results flagged for a closer look

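Furin, which encodes the protease that matures TGF-beta 1, was flagged because its response to cyclosporine differed between the cell types. The CSA main effect in CD8 minus that in CD4 was -0.71 log2 (SE 0.13, edgeR adjusted p = 0.0373 over 13476 genes), in a comparison added after the values were seen. Furin averaged 106, 93.1, 102 and 93.6 CPM in CD8 cells and 157, 244, 154 and 214 CPM in CD4 cells for untreated, CSA, RUX and RUX+CSA. The level was higher with CSA in CD4 cells and slightly lower in CD8 cells. Leaving out 1 of the 24 libraries gave adjusted p-values from 0.0233 to 0.109. The call was lost without CD8 untreated 2 (0.109) or 3 (0.0776), CD8 CSA 4 (0.0816) or 5 (0.0522), CD8 RUX 9 (0.064), CD8 RUX+CSA 10 (0.103) or 11 (0.08), CD4 untreated 13 (0.0542) or 15 (0.0609), CD4 CSA 17 (0.0705) or 18 (0.0565), and CD4 RUX+CSA 23 (0.0784).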

How the results depend on the processing

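No paired analysis was possible because the pool numbers 1 to 24 are not shared between groups; whether CD8 and CD4 pools came from the same mice is not given in the labels. All 8 member differences between CD8 and CD4 averaged over treatments kept their direction and their side of the threshold under DESeq2, its size factors, no filter, each library left out, and the omission of CD8 CSA 6 and CD8 RUX 7. Where the filter was used, it fixed the direction for Il4 and Il13.

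Counts of genes past the threshold moved more. Against untreated, CD8 CSA had 0 genes by edgeR (1233 at an unadjusted p under 0.05), 66 by DESeq2, 616 without CD8 CSA 6 and CD8 RUX 7 and 0 to 1 with 1 library left out. CD8 RUX had 0 (744 unadjusted), 78 by DESeq2, 2 with no filter and 0 to 9. CD8 RUX+CSA had 1988, 3893 without CD8 CSA 6 and CD8 RUX 7, and 426 (without CD8 RUX+CSA 10) to 1807. CD4 CSA had 195, 655 by DESeq2 and 48 (without CD4 CSA 18) to 204; CD4 RUX had 0 (548 unadjusted), 12 by DESeq2 and 0 to 15; CD4 RUX+CSA had 233, 883 by DESeq2 and 58 (without CD4 RUX+CSA 22) to 293. The CD8 CSA main effect had 299, 1326 by DESeq2, 2802 without CD8 CSA 6 and CD8 RUX 7, and 0 (without CD8 untreated 2) to 1403 (without CD8 RUX 7); the CD8 RUX main effect had 71, 573, 245, and 0 to 197. The CD4 CSA main effect had 943, 1674 by DESeq2 and 456 (without CD4 RUX 20) to 1209; the CD4 RUX main effect had 33, 210 by DESeq2, 69 with no filter and 0 to 88. CD8 against CD4 had 2324 (1506 to 2903 with 1 library left out) in untreated, 3545 (2341 to 2985) in CSA and 2409 (1491 to 2167) in RUX. Differences of effects between the cell types had, for CSA, 0 (1005 unadjusted), 15 by DESeq2 and 0 to 4; for RUX, 0 (441 unadjusted), 2 by DESeq2 and 0 to 2; for RUX+CSA, 3, with 0 under DESeq2 size factors, 208 by DESeq2, 7 with no filter, 114 without CD8 CSA 6 and CD8 RUX 7, and 0 to 6; for the CSA main effect, 11, 238, 114, and 1 to 42.

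Member differences changed sign where none had passed the test, and the cause was not tested. Without CD8 CSA 6 and CD8 RUX 7, log2 values became -0.4 for Il10 under CD8 CSA, 0.23 for Tnf under CD8 RUX, 0.18 and 0.05 for Il10 and Csf2 in the CD8 RUX main effect, and 0.21 for Csf1 in the RUX effect, CD8 minus CD4. With 1 library left out, the CD8 ranges that crossed 0 were -0.39 to 0.65 for Il10 under CSA, -0.81 to 0.05, -0.11 to 0.55 and -0.49 to 0.24 for Il2, Il10 and Tnf under RUX, -0.54 to 0.04 for Il10 under RUX+CSA, -0.45 to 0.07 for Il10 in the CSA main effect, and -0.39 to 0.08 and -0.51 to 0.04 for Il10 and Csf2 in the RUX main effect. In CD4 they were -0.56 to 0.78 and -2.08 to 0.76 for Il4 and Il13 under CSA, -0.32 to 1.17 and -0.1 to 0.59 for Il4 and Tnf under RUX, -0.08 to 0.36, -0.93 to 1.26 and -0.11 to 0.09 for Il10, Il13 and Tgfb1 under RUX+CSA, and -0.2 to 0.11 for Il10 in the RUX main effect. For effects in CD8 minus CD4 they were -0.84 to 0.21 and -0.24 to 0.87 for Csf1 and Csf2 under RUX and -0.74 to 0.12 for Csf2 under RUX+CSA.

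Depth limits Il3, Il4, Il13 and Il17a in CD8 cells, where a count of 0 allows up to 3 counts a library.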
